A study of Mus musculus with 7 samples.

Results

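The 10 genes described here encode the regulators that set how much mitochondrial and fatty acid-burning machinery a muscle fibre makes. They are the PGC-1 coactivators Ppargc1a, Ppargc1b and Pprc1, the estrogen-related receptors Esrra and Esrrg, the peroxisome proliferator-activated receptors Ppara and Ppard, nuclear respiratory factor 1 (Nrf1), and the NAD-dependent deacetylases Sirt1 and Sirt3. They were chosen by gene symbol, and all 10 were found among 19938 genes that an array of 28856 probe sets measured with a probe set of 1 symbol. Each gene was read through its probe set of highest mean, and only Ppargc1a had a second one. The arrays, 1 per mouse, came from the extensor digitorum longus, a fast-twitch hindlimb muscle, of 4 wild type mice and 3 AMPKα1α2 double knockout mice. The strain label of both groups is a mix of C57/Bl6 and SV129. The knockout lacks, by its label, both catalytic subunits of AMP-activated protein kinase (AMPK), a sensor of cellular energy. Age, sex, the Cre or promoter used, whether the deletion was limited to muscle, and whether the mice had exercised are not stated by the labels.

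PGC-1 coactivators bind no DNA themselves. They dock on nuclear receptors such as the ERR and PPAR proteins and on NRF-1, and raise the transcription of genes for respiration and fatty acid oxidation. In muscle, transcription of Ppargc1a is induced by contraction through calcium and cyclic AMP signals. AMPK is known to phosphorylate the PGC-1α protein and to raise NAD, which SIRT1 needs to deacetylate PGC-1α. Much of this control acts on proteins, which an array of transcripts does not measure.

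Array medians lay between 7.501 and 7.584. The targeted gene Prkaa1 differed by -0.51 ± 0.09 (log2, knockout minus wild type, moderated SE) and Prkaa2 by -0.21 ± 0.07. Neither passed (limma with Benjamini-Hochberg adjustment, adjusted p = 0.12 and 0.39), and whether the probes lie in a deleted part is not known, so each array keeps the genotype its label gives. The mean level of 10 fast fibre markers lay between 13.72 and 13.78 in wild type and between 13.74 and 13.75 in knockout arrays. In whole muscle, fewer cells of a type and less RNA per cell cannot be told apart. The mean of 11 macrophage markers ran from 8.39 to 8.65 in wild type and from 9.13 to 9.29 in knockout arrays, with Lyz2 higher by 0.94 ± 0.05 and Tyrobp by 0.63 ± 0.05. The mean of 11 endothelial markers ran from 9.58 to 9.75 and from 9.31 to 9.42, with Cdh5 at -0.32 ± 0.06 and Emcn at -0.59 ± 0.11. The mean of 9 slow fibre markers ran from 8.48 to 8.64 and from 8.71 to 9.22, with Tnni1 at 1.00 ± 0.17 and Atp2a2 at 0.76 ± 0.15. The 9 did not all rise: 1 of them, Myl2, lay below 0 at -0.24 ± 0.28, and Myh7b was at 0.004 ± 0.027. Myl2 and Myh7b were named after their values were seen. The part of these cell types in the values of the 10 regulators was not tested. The immediate early genes, induced within minutes of a stimulus, were high on knockout replicate 2: 18 of 19 had their highest value there, and their mean was 10.29 on that array against 8.48 to 8.86 on the other 6.

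The sequence before the start site is shown for Ppargc1a, which varied most between arrays, and for Sirt3, Esrra and Ppara, the regulators with the smallest p, with the elements through which cyclic AMP, NRF-1 and ETS factors are known to act. Each run is read 5′ to 3′ on the gene's own strand from RefSeq (GRCm38.p6), and capitals mark the matched letters. The Ppargc1a and Sirt3 windows shown are the 250 bases before an annotated start, at chr5:51567726-51567975 (minus strand) and chr7:140882310-140882559 (minus strand). The Esrra and Ppara runs are 30 bases, at chr19:6921824-6921853 (minus strand) and chr15:85735735-85735764 (plus strand).
Ppargc1a: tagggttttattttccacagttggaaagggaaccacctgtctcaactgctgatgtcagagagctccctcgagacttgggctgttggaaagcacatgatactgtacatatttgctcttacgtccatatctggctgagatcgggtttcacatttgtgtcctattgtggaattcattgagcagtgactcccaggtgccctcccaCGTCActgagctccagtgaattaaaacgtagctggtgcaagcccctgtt
Sirt3: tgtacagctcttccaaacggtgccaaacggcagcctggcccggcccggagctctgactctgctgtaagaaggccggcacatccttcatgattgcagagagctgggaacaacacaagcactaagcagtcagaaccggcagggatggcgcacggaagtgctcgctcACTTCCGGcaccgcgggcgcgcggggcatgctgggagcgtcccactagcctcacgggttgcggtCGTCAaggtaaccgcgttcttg
Esrra: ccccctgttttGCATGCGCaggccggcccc
Ppara: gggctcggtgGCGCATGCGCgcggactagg

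The Ppargc1a window held the cyclic AMP response half-site TGACG, on the strand opposite to the gene, 49 bases before the start. That half-site occurs in 17.8% of 32851 promoter windows of the same length, and the full palindrome TGACGTCA, which contains it, was in 1.55% of all windows and in 0 of 14 windows of the regulators. The NRF-1 core GCGCATGC, searched on both strands, was in 2.26% of all windows and in 2 of the 14, those of Esrra and Ppara. In Ppara it matched on both strands with overlap. The Sirt3 window shown held the ETS element ACTTCCGG, which GABP (also called NRF-2) can bind and which 2.88% of all windows hold, and a TGACG half-site. Another Sirt3 window, at chr7:140881870-140882119 (minus strand), matched none of the elements. The ERR element TNAAGGTCA was in 1.14% of all windows and in 0 of the 14. These matches describe letters in a short window and say nothing of binding in these muscles. The Ppargc1a window lies inside the gene's longest annotated span, chr5:51454249-52115853, since transcripts start at several sites. The Esrra and Ppara runs likewise lie inside the spans of their genes, chr19:6910977-6922048 and chr15:85734910-85806851. The 14 windows belong to 9 regulators, and that of Ppargc1b was not analysed here.

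No regulator passed the test over all genes. Of the 10, 0 had an adjusted p under 0.05 (limma with Benjamini-Hochberg adjustment), a call made for 0.0251% of all genes. At an unadjusted p under 0.05, 3 were lower in the knockout (Sirt3, Esrra and Ppara) and 0 were higher, where 6.69% of all genes were lower and 3.93% higher by that rule. The count of 3 was 1, Sirt3, without wild type replicate 3 or without knockout replicate 3. In those settings 4.35% and 6.51% of all genes were lower by that rule. Of the 10, 7 lay below 0, against 53.3% of all genes, and their median difference was -0.01, against -0.00 over all genes. That median was 0.01 without knockout replicate 3 and 0.03 with array weights. For 2 of the 10 the genotypes did not overlap, both lower, where 8.61% of all genes did not overlap, 5.33% lower and 3.29% higher. With 10 genes chosen for a shared pathway, these shares describe the list and are not a test of it.

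**Figure D1:**
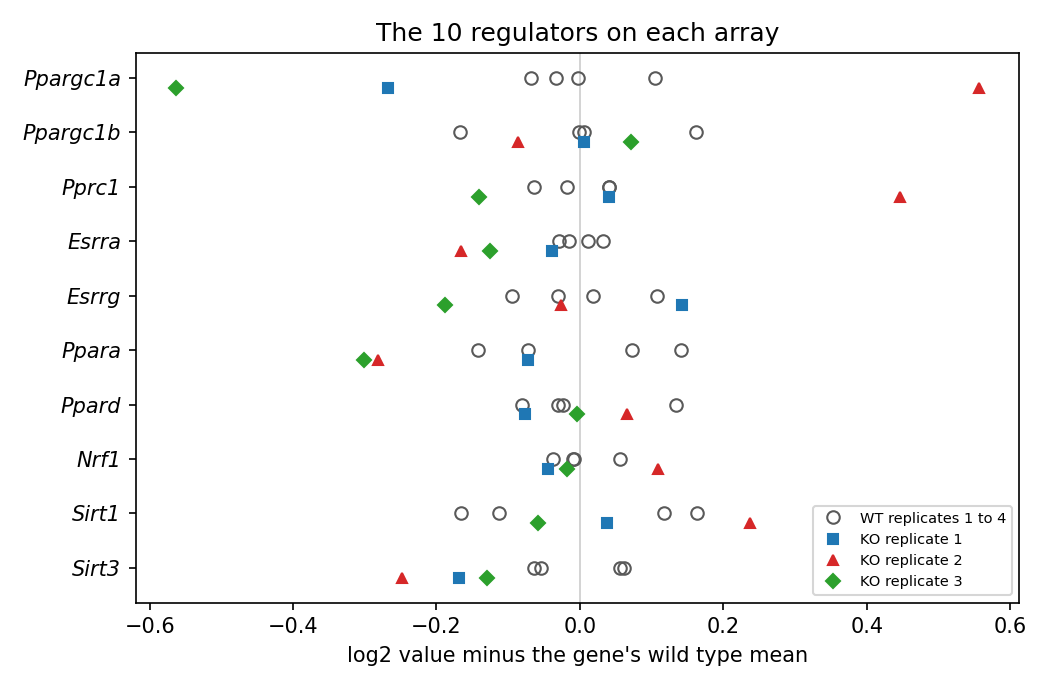
Each row is a regulator and the horizontal axis gives its log2 value minus its own wild type mean, with open circles for the 4 wild type arrays and, just below them, a filled square, triangle and diamond for knockout replicates 1, 2 and 3. Sirt3 and Esrra have all knockout arrays to the left of all wild type arrays, while knockout replicate 2 stands far to the right for Ppargc1a and Pprc1.

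Ppargc1a encodes PGC-1α, the inducible coactivator of mitochondrial biogenesis. Its probe set 10529979 gave 10.70, 10.67, 10.81 and 10.63 (log2) for wild type replicates 1 to 4. The knockout gave 10.43, 11.26 and 10.14 for replicates 1 to 3. The knockout arrays lay on both sides of the wild type: replicates 1 and 3 were below every wild type array and replicate 2 above every one. The knockout SD was 0.58 against 0.07 in wild type. The difference was -0.09 ± 0.24 (95% interval -0.66 to 0.48, limma adjusted p = 0.93), so a change in either direction within that interval is not excluded. Without knockout replicate 2 the difference was -0.42 ± 0.09, and it still did not pass (limma adjusted p = 0.34). Without knockout replicate 3 it was 0.14 ± 0.22, and with array weights, which give less weight to arrays that stand apart, it was 0.17 ± 0.21.

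The other Ppargc1a probe set, 10529977, had the same extremes. Wild type arrays gave 9.50, 9.19, 9.62 and 9.47, and knockout arrays 9.41, 10.28 and 8.75. Replicate 2 was again the highest array and replicate 3 the lowest, but replicate 1 lay within the wild type range. Its difference was 0.03 ± 0.33, opposite in sign to that of the first probe set and small against its error.

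Pprc1 encodes PRC, a coactivator that growth signals induce rapidly. Wild type arrays gave 7.90, 7.90, 7.80 and 7.84, and knockout arrays 7.90, 8.31 and 7.72. Knockout replicate 2 was 0.41 above the next array, and replicate 3 was the lowest of all. The difference of 0.12 ± 0.13 (95% interval -0.19 to 0.42, limma adjusted p = 0.80) became -0.05 without knockout replicate 2. Ppargc1a and Pprc1 were thus high on the array on which the immediate early genes were high, for instance Atf3, at 12.35 there and between 8.41 and 10.57 elsewhere. The part of the immediate early genes in the coactivator values was not tested.

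**Figure D2:**
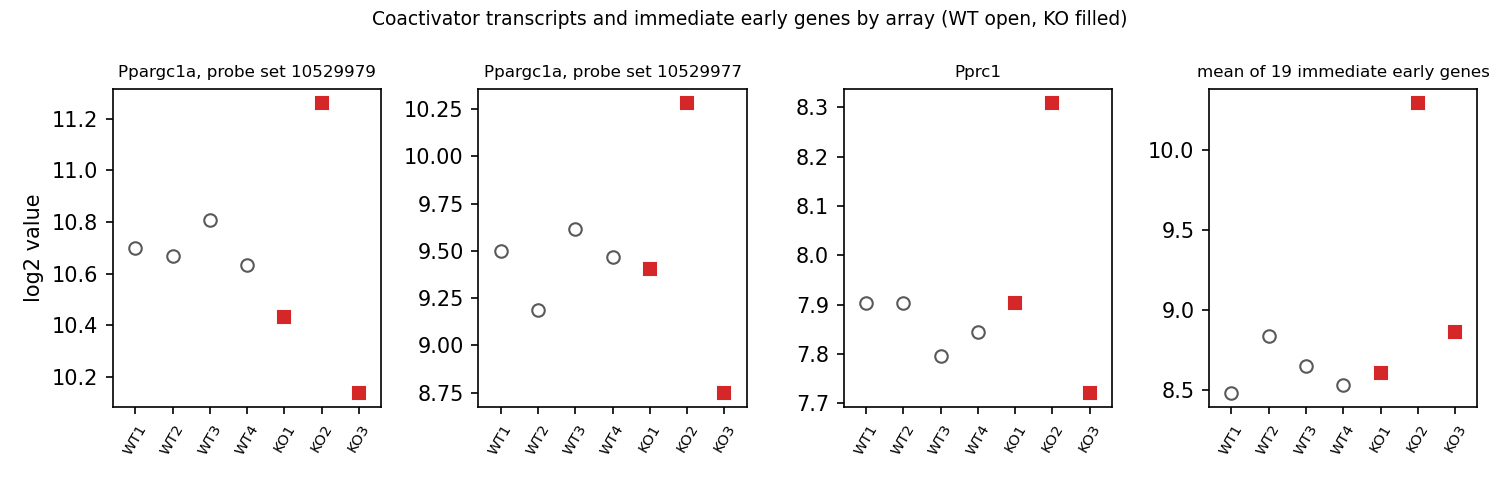
The 4 panels give log2 values on each of the 7 arrays (wild type open circles, knockout filled squares) for both Ppargc1a probe sets, Pprc1 and the mean of 19 immediate early genes, each panel on its own axis. Knockout replicate 2 is the highest array in every panel, at 11.26, 10.28, 8.31 and 10.29.

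Ppargc1b encodes PGC-1β, the coactivator that supports basal mitochondrial content. Wild type arrays gave 8.85, 8.67, 9.004 and 8.84, and knockout arrays 8.85, 8.76 and 8.91. All knockout arrays lay inside the wild type range. The difference was -0.00 ± 0.08, and the 95% interval of -0.19 to 0.18 bounds a change in either direction (limma adjusted p = 0.996).

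Esrra encodes ERRα, the main nuclear receptor partner of PGC-1α on respiratory genes. Wild type arrays gave 9.24, 9.29, 9.27 and 9.23, and knockout arrays 9.22, 9.09 and 9.13. The knockout arrays were all below the wild type arrays, although replicate 1 missed the lowest of them narrowly. The difference was -0.11 ± 0.04 (95% interval -0.20 to -0.02, 1.08-fold lower), with an unadjusted p of 0.025 and a limma adjusted p of 0.40. The unadjusted p was under 0.05 in 9 of 15 alternatives and 0.081 without knockout replicate 2. After median centring of the arrays the genotypes overlapped.

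Esrrg encodes ERRγ, which drives oxidative and capillary genes when it is abundant in muscle. The values were 8.38, 8.34, 8.47 and 8.27 (wild type) against 8.51, 8.34 and 8.18 (knockout). Knockout replicate 1 was the highest and replicate 3 the lowest of the 7 arrays. The difference was -0.02 ± 0.08 (95% interval -0.22 to 0.17, limma adjusted p = 0.95), and it turned to 0.06 without knockout replicate 3.

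Ppara encodes PPARα, a fatty acid-activated receptor for genes of fatty acid oxidation. The values were 8.63, 8.49, 8.70 and 8.42 (wild type) against 8.49, 8.28 and 8.26 (knockout). Replicates 2 and 3 of the knockout were below every wild type array, and replicate 1 had exactly the value of wild type replicate 2. The difference was -0.22 ± 0.09 (95% interval -0.42 to -0.01, 1.16-fold lower, limma adjusted p = 0.45). It ran from -0.29 without knockout replicate 1 to -0.17 without wild type replicate 3, with an unadjusted p under 0.05 in 10 of 15 alternatives and 0.13 without knockout replicate 3.

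Ppard encodes PPARδ, the PPAR most linked to endurance training in muscle. The values were 9.99, 10.21, 10.04 and 10.05 (wild type) against 9.99, 10.14 and 10.07 (knockout), so the knockout arrays lay inside the wild type range. The difference was -0.00 ± 0.06 (95% interval -0.15 to 0.14, limma adjusted p = 0.99), with a sign that turned under array weights, after quantile normalization and when knockout replicate 1 or wild type replicate 2 was left out.

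Nrf1, nuclear respiratory factor 1, activates nuclear genes of the respiratory chain and of mitochondrial DNA maintenance. Wild type arrays gave 8.04, 8.01, 8.10 and 8.04, and knockout arrays 8.005, 8.16 and 8.03. Knockout replicates 1 and 2 were the lowest and the highest array. The difference was 0.02 ± 0.05, with a 95% interval of -0.09 to 0.13 (limma adjusted p = 0.94). It was -0.03 without knockout replicate 2.

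Sirt1 encodes the nuclear deacetylase of PGC-1α. The values were 8.42, 8.14, 8.46 and 8.19 (wild type) against 8.34, 8.54 and 8.24 (knockout). Wild type replicates 1 and 3 were high and 2 and 4 low, and knockout replicate 2 was the highest array. The difference was 0.07 ± 0.11 (95% interval -0.18 to 0.32, limma adjusted p = 0.86), and -0.01 without that array.

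Sirt3, the mitochondrial deacetylase that activates enzymes of oxidation and antioxidant defence, had the smallest p of the 10. Wild type arrays gave 8.77, 8.76, 8.88 and 8.89, and knockout arrays 8.66, 8.58 and 8.70. The highest knockout array lay below the lowest wild type array. The difference was -0.18 ± 0.05 (95% interval -0.30 to -0.07, 1.13-fold lower), with an unadjusted p of 0.0075 and a limma adjusted p of 0.28. It lay between -0.22 and -0.15 in 15 alternatives, with an unadjusted p under 0.05 in all 15 and an adjusted p under 0.05 in 0.

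**Figure D3:**
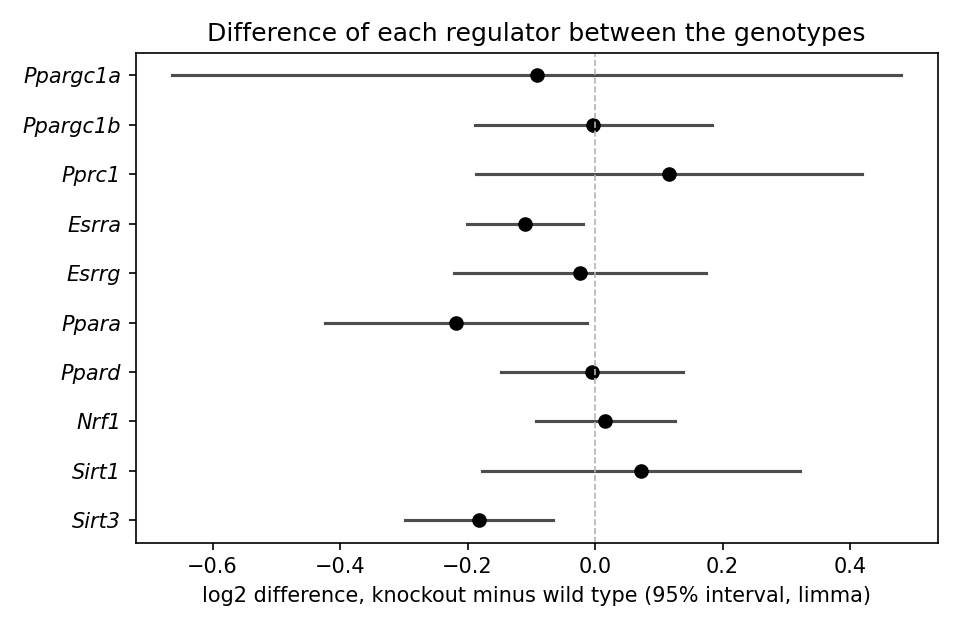
Points give the log2 difference of each regulator, knockout minus wild type, and lines its 95% interval from limma (4 wild type and 3 knockout arrays). The intervals of Sirt3, Esrra and Ppara lie below 0 before adjustment for many genes, and that of Ppargc1a is the widest, from -0.66 to 0.48.

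Ppargc1a, Pprc1, Nrf1 and Sirt1 had their highest value on knockout replicate 2, which is 40% of the 10, where that array was the highest for 9.99% of all genes. Ppargc1a, Pprc1, Esrrg and Ppara had their lowest value on knockout replicate 3, where that held for 17.6% of all genes. Sirt3 and Esrra had their lowest value on knockout replicate 2, which is 20% of the 10, near the 19% of all genes for which that held.

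The values of 4 pairs linked by known biology were compared over the 7 arrays with an exact two-sided permutation test, adjusted by Benjamini-Hochberg over the 4 pairs. Ppargc1a with Esrra gave Pearson's r = -0.15 (exact p = 0.74, adjusted p = 0.86) and Spearman's rho = 0.14 (exact p = 0.78, adjusted p = 1.0). Ppargc1a with Ppara gave r = 0.10 (exact p = 0.86, adjusted p = 0.86) and rho = 0.40 (exact p = 0.38, adjusted p = 0.77). Both values rest on knockout replicate 2: r was 0.92 and 0.86 without it, and 0.65 and 0.66 without replicates 2 and 3, the arrays farthest from the Ppargc1a median. Esrra, a receptor known to act on the Sirt3 promoter, with Sirt3 gave r = 0.72 (exact p = 0.071, adjusted p = 0.28) and rho = 0.64 (exact p = 0.14, adjusted p = 0.56), and r was 0.26 without knockout replicates 2 and 3. Ppargc1a with Sirt3 gave r = -0.16 (exact p = 0.76, adjusted p = 0.86) and rho = 0.00 (exact p = 1.0, adjusted p = 1.0), with r = 0.77 without the same arrays. No pair passed, and within a genotype there are too few arrays for a correlation. The permutations ran over all 7 arrays without regard to genotype. Esrra and Sirt3 each had all knockout arrays below all wild type arrays, so their r includes that shared difference, and its part was not tested.

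The genes whose profile over the 7 arrays was most like a regulator were read among 9963 other genes with a mean at or above the median. They were Hs6st1 (r = 0.99), Ctdspl2 (0.97) and Phf8 (0.96) for Ppargc1a. For Esrra they were Tug1, Brcc3 and Cipc (each r = 0.99), and for Ppara they were Arfrp1 (r = 1.00), Zer1 (0.99) and Pts (0.99). For Sirt3 they were Tnfaip1, Ak3 and Lancl2 (each r = 0.97). With 7 arrays and this many genes such values of r are a description of likeness over arrays only.

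Among 14 measured receptor partners and cofactors, 1 was lower at an unadjusted p under 0.05, 0 were higher and 0 passed the adjusted test, and the list median was -0.06. That gene was Rxra, the retinoid X receptor that pairs with PPAR proteins, with 10.71, 10.52, 10.73 and 10.57 in wild type against 10.57, 10.33 and 10.32 in the knockout (-0.23 ± 0.08, limma adjusted p = 0.41). Its genotypes overlapped through knockout replicate 1, as those of Ppara did. Rxrg, the retinoid X receptor form of muscle, differed by -0.39 ± 0.19 and Esrrb, the third ERR, by -0.12 ± 0.06.

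Of 16 genes known to act on Ppargc1a transcription, 1 was lower at an unadjusted p under 0.05 and 0 were higher, with a median of -0.02 and 0 past the adjusted test. The leading values were -0.18 ± 0.07 for Ppp3cb, a catalytic subunit of calcineurin, -0.14 ± 0.07 for Atf2 and -0.09 ± 0.05 for Mef2d, transcription factors of the Ppargc1a promoter. Of 11 sirtuins and NAD genes, 1 was lower at an unadjusted p under 0.05, 0 were higher and 0 passed the adjusted test (median -0.04). Sirt6, a nuclear sirtuin, differed by -0.15 ± 0.05, Nampt, which makes the precursor of NAD, by -0.24 ± 0.12 and Nnmt, which methylates nicotinamide, by 0.17 ± 0.08. The list of the NRF arm joins genes that maintain and transcribe mitochondrial DNA with more general transcription factors such as Nfe2l2 and Myc. Of its 13 measured genes, 1 was lower at an unadjusted p under 0.05, 0 were higher and 0 passed the adjusted test (median -0.06). Polrmt, the mitochondrial RNA polymerase, differed by -0.08 ± 0.03, Polg, the mitochondrial DNA polymerase, by 0.06 ± 0.03, and Myc by 0.87 ± 0.45, its value of 10.22 on knockout replicate 2 standing against 7.92 to 8.43 on the other arrays. The 1 lower gene of each of these 4 lists is 7.14%, 6.25%, 9.09% and 7.69% of it, near the 6.69% of all genes. Without wild type replicate 3 or knockout replicate 2 each of the 4 counts was 0, where 4.35% and 4.14% of all genes were lower. The count was 3 for the partners without wild type replicate 4, where 5.16% of all genes were lower. It was 2 for each of the other lists without knockout replicate 1, where 8.5% of all genes were lower.

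Lists of genes known as targets of these regulators held more genes with a small p. Of 19 measured ERR target genes, 18 were lower in the knockout at an unadjusted p under 0.05 and 0 were higher, where 6.69% of all genes were lower. The list median was -0.20, and 16 of the 19 were lower without overlap between the genotypes, against 5.33% of all genes. Of the 19, 0 passed the adjusted test, a call made for 0.0251% of all genes. Their mean levels lay at percentiles 88.9 to 99.9 of all genes, so the list is brighter than the genes it is set against. Ckmt2, the mitochondrial creatine kinase of muscle, gave 12.78, 12.85, 12.67 and 12.78 (wild type) against 12.37, 12.33 and 12.12 (knockout) (-0.49 ± 0.07, limma adjusted p = 0.095). Cox8b, a cytochrome oxidase subunit, differed by -0.26 ± 0.04 and Sdhd, a membrane anchor of succinate dehydrogenase, by -0.23 ± 0.04. The remaining gene, Cycs (cytochrome c), was at -0.02 ± 0.08 and was named after its value was seen. The mean of the list was 12.34 to 12.37 in wild type and 12.13 to 12.19 in knockout arrays. Without knockout replicate 2, on which Ppargc1a was high, 14 of the 19 were lower by the same rule and the median was again -0.20. In that setting 4.14% of all genes were lower. The list held 14 to 16 lower genes when any 1 array was left out, and 13 with the replicate number as a block.

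Of 22 measured PPAR target genes, 11 were lower at an unadjusted p under 0.05, 0 were higher and 0 passed the adjusted test, with a median of -0.20. Acadvl, the dehydrogenase of very long-chain fatty acids, differed by -0.43 ± 0.05, Hadha, of the trifunctional protein, by -0.20 ± 0.04 and Cd36, a fatty acid translocase that endothelial cells also express, by -0.54 ± 0.12. The list also held genes of opposite sign: Pdk4, which restrains pyruvate oxidation, differed by 0.62 ± 0.41 and Angptl4, a lipase inhibitor, by 0.71 ± 0.38. Both were highest on knockout replicate 2, at 13.39 and 9.59, and were named after their values were seen. Without knockout replicate 2 or wild type replicate 3, 7 of the 22 were lower by that rule, where 4.14% and 4.35% of all genes were.

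Of 15 measured NRF-1 target genes, which share Sdhd, Cox4i1, Cox5b and Cycs with the ERR list, 7 were lower at an unadjusted p under 0.05, 0 were higher and 0 passed the adjusted test (median -0.10). Uqcrq, a subunit of complex III, differed by -0.23 ± 0.05 and Cox6c, of cytochrome oxidase, by -0.10 ± 0.03. The median was -0.04 without knockout replicate 3. Of 12 measured enzymes and mitochondrial proteins known as SIRT3 substrates, 9 were lower at an unadjusted p under 0.05, 1 was higher and 0 passed the adjusted test (median -0.23). Sod2, the mitochondrial superoxide dismutase, gave 12.31, 12.36, 12.30 and 12.28 (wild type) against 12.04, 12.02 and 11.96 (knockout) (-0.31 ± 0.03, limma adjusted p = 0.083). Sdha, the flavoprotein of succinate dehydrogenase, and Atp5o, of ATP synthase, each differed by -0.23 ± 0.05, and the higher gene was Aldh2, an aldehyde dehydrogenase, at 0.15 ± 0.04, named after its value was seen.

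Of 10 measured muscle genes listed here as responsive to PGC-1α, 5 were lower at an unadjusted p under 0.05, 1 was higher and 0 passed the adjusted test (median -0.16). Ckmt2 was among the lower ones, as was Ldhb, a lactate dehydrogenase subunit, at -0.68 ± 0.12. The higher one was Tnni1, the slow troponin I, which belongs to the slow fibre markers too. The list also counted Fbxo32, at 0.28 ± 0.44, which is not established as induced by PGC-1α. It was named after its value was seen. Over all 9 lists without repeats, 47 of 118 measured genes were lower at an unadjusted p under 0.05, 2 were higher and 0 passed the adjusted test. Over all genes these shares were 6.69%, 3.93% and 0.0251%, which also stand beside the count of each list. The lists were chosen with earlier results of these data known, so the counts describe them and are not a test. These lists share genes, and the endothelial, macrophage and slow fibre marker levels given above also separated the genotypes on these arrays; their part in the list counts was not tested.

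**Figure D4:**
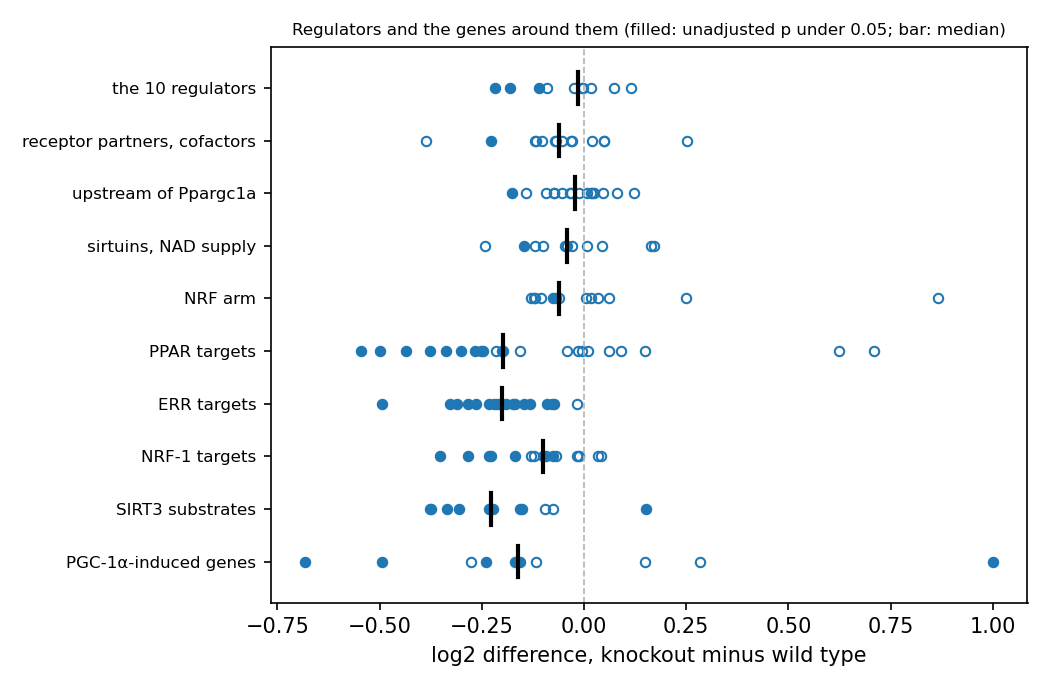
Each point is a gene, placed by its log2 difference (knockout minus wild type), in a row for the 10 regulators and for each of 9 lists around them. Filled points had an unadjusted p under 0.05 and the black bar is the median of the row. The median is -0.01 for the regulators and -0.20 for the ERR and for the PPAR target genes.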

How the data were processed

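RNA of 7 muscles, 1 array each, was taken up in TRIzol, and 100 ng was labelled (Ambion WT Expression Kit), as the labels' protocols state. The deposited table holds log2 expression values of 28856 probe sets. The base is inferred from their range of 4.41 to 14.65, and every difference rests on it. How the authors corrected background, normalized and summarized is not stated by any source here. The same value recurred exactly on 2 or more arrays in 59.9% of probe sets, so ties between arrays are common. Names came from GEO's platform annotation: 21789 probe sets had 1 symbol and were tested, 1621 had several and 5446 were unnamed here. All 10 regulators matched the RefSeq gene table (GRCm38.p6) by gene identifier. Columns left unused numbered 0.

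Knockout minus wild type was fitted over all 21789 probe sets with limma 3.58.1 in R 4.3.3 (lmFit, eBayes, no covariate, no filter), with Benjamini-Hochberg adjustment over them and a threshold of 0.05. Values after ± are moderated standard errors. The fit was checked on simulated arrays with known differences. The limma p-values set each difference against the moderated spread between these arrays and treat the arrays as independent. The labels do not state whether mice came from separate litters, so that independence is not known.

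The regulators, the gene lists and the tests were chosen with earlier results of these data known. Named are all regulators, the 3 genes of smallest p in each of 9 pathway lists, the 2 in each cell type list, the targeted genes, and the 3 genes most like each of 4 regulators. The remaining named markers are given in the closing section. Each alternative altered a single choice: a replicate block, scaling, leaving out dim probe sets, weights per array, another prior, all probe sets, the mean of a gene's probe sets, a threshold of 0.10 and leaving out each array.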

Additional observations from a re-analysis of the deposited data

How the results depend on the processing

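The count of 0 regulators past the adjusted threshold held in all 16 alternatives, and the count of 0 pairs in all 10. The count of 0 genes of the lists held in 15 of 16 alternatives and was 3 at an adjusted p under 0.10. Of 150 differences of single regulators, 134 kept their sign and 16 turned, with 0 past the adjusted threshold. Under array weights Esrrg was 0.0194, Ppard 0.0322 and Ppargc1a 0.17. After quantile normalization Ppard was 0.0131 and Ppargc1b 0.0104, and after median centring Nrf1 was -0.00073. When 1 array was left out, Esrrg ran from -0.107 to 0.0576, Nrf1 from -0.0307 to 0.0460, Ppard from -0.0398 to 0.0401, Ppargc1a from -0.416 to 0.144, Ppargc1b from -0.0584 to 0.0515, Pprc1 from -0.0497 to 0.244 and Sirt1 from -0.00992 to 0.138. Sirt3, Esrra and Ppara kept their sign in all 15 alternatives each, with an unadjusted p under 0.05 in 15, 9 and 10 of them. The cause was not tested. Replicate numbers are shared between the genotypes, and the labels do not say whether they pair the mice. Deviations of same-numbered arrays correlated between -0.20 and 0.29 in the 3 pairs, too few pairs to decide it. With the replicate number as a block, 0 regulators and 0 genes of the lists passed, and Sirt3 differed by -0.16 and Esrra by -0.12. In that setting 13 of the 19 ERR target genes and 7 of the 22 PPAR target genes were lower at an unadjusted p under 0.05. Over all genes 5.1% were lower by that rule. With 7 arrays, precision is limited by their number.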

Other observations

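Markers of other cells that were not described with the regulators were read in the same fit. Of 5 measured adipocyte markers, 2 were lower at an unadjusted p under 0.05 and 0 passed the adjusted test, led by Adipoq at -0.34 ± 0.12 and Retn at -0.36 ± 0.14. That count was 0 without wild type replicate 2 or knockout replicate 1, and 1 without wild type replicate 3 or knockout replicate 2. The lower share of all genes was 6.69% in the main fit and 5.82%, 8.5%, 4.35% and 4.14% without those arrays, in that order. Of 6 fibroblast markers, 2 were higher at an unadjusted p under 0.05, Pdgfra at 0.53 ± 0.11 and Lum at 0.71 ± 0.30, and 0 passed. The collagen genes Col1a1 and Col1a2 of that list were at -0.28 ± 0.26 and -0.20 ± 0.21, named after their values were seen. The count of 2 became 1 when replicate 3 or 4 of the wild type, or replicate 2 or 3 of the knockout, was left out. Of 19938 genes, 784 were higher in the main fit and 638, 580, 658 and 710 without those arrays, in that order. With the replicate block 2 fibroblast markers were lower and 2 higher. Of 3 measured Schwann cell markers 0 passed either rule, with Sox10 at -0.05 ± 0.04 and S100b at 0.03 ± 0.03. Among the fast fibre markers Mylpf differed by 0.14 ± 0.06 and Tnnc2 by -0.07 ± 0.03, and 0 of 10 passed either rule. Among the immediate early genes Atf3 differed by 2.09 ± 0.61 and Fosb by 0.94 ± 0.49, both highest on knockout replicate 2.

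Wild type arrays spanned 0.06 for Esrra and 0.17 for Ppargc1a, and knockout arrays spanned 0.13 and 1.12. The means of the ERR target list did not overlap between the genotypes, while the first Ppargc1a probe set was below all wild type arrays on 2 knockout arrays and the other probe set on 1, and both were above them on knockout replicate 2. Uncoupling protein Ucp3, counted with both the PPAR targets and the genes listed as responsive to PGC-1α, was also highest on knockout replicate 2, at 11.10. Nfe2l2 stood at 10.42 there and between 9.60 and 9.83 on the other arrays. Ucp3 and Nfe2l2 were named after their values were seen.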
